A study of Mus musculus with 6 samples.

Results

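The heat shock chaperones described here are 10 mouse genes, 5 whose proteins work in the cytosol (Hsp90aa1, Hsp90ab1, Hspa4, Hspa8 and Hspb1), 2 in the endoplasmic reticulum (ER; Hsp90b1 and Hspa5) and 3 in the mitochondria (Hspa9, Hspd1 and Hspe1). They were taken by gene name, and each matched exactly 1 of the 23698 rows that list genes. None of the 204 rows that join the names of several genes held a member. The study asked how squamous cell carcinoma (SCC) changes the transcript isoforms and the translation of epidermal cells. The libraries used here come from SCCc, cultured primary keratinocytes from P0 mouse back skin of the genotype HrasG12V and Tgfbr2 fl/fl KO, used at passages 10 to 15. Keratinocytes are the epithelial cells of the epidermis, Hras encodes a RAS GTPase that the G12V change keeps active, and Tgfbr2 encodes a receptor of the growth inhibitor TGF-beta. For SCCc, this report uses 1 library of ribosome profiling beside 2 of RNA-seq, and the values describe this 1 condition. The study also drew on further SCC footprint libraries and on wild-type keratinocyte libraries from another series, which were not analysed here.

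Chaperones bind unfolded proteins and help them to fold, to cross membranes or to be degraded. The Hsp70 and Hsp90 families spend ATP on this in cycles that J-domain proteins, nucleotide exchange factors and other co-chaperones steer, the Hsp60 and Hsp10 proteins build a folding chamber in the mitochondrial matrix, and small heat shock proteins hold unfolded proteins without ATP. Heat and other stresses raise many of these genes through the transcription factor HSF1, and an overloaded ER raises its own set through the unfolded protein response, while keratinocytes are known to hold small heat shock proteins as they differentiate.

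Ribosome profiling sequences the mRNA fragments covered by ribosomes, called footprints, and RNA-seq measures the mRNA itself. Counts on exons summed to 3549555 in the footprint library, of which 3198469 lay on coding sequence (CDS), and to 10707930 and 14003713 in RNA-seq replicates 1 and 2. Levels are given as RPKM, counts scaled by the counted length and by the sum of exon counts of the library. Translational efficiency (TE) divides the RPKM of footprints on the CDS by the average exon RPKM of both RNA-seq replicates. It is given on the log2 scale and relative to the median of the 9863 genes that passed the filters on low values. All 10 chaperone genes passed. Between the RNA-seq replicates the difference exceeded sampling noise (chi-square of 7.52 per degree of freedom over these genes, a test that compares the libraries and not conditions), and across genes the SD of log2 replicate 2 over replicate 1 was 0.20. Only 1 footprint library was used here, so the SD beside a TE comes from the 2 RNA-seq replicates, and intervals given for footprints cover counting error only.

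The marker genes were those of keratinocytes. Krt5, a basal keratin, was the most abundant of the 8 keratinocyte markers at 7965 and 9483 RPKM in RNA-seq replicates 1 and 2 and 4640 RPKM in footprints. All 8 passed the filters, and their summed RPKM was 14390 and 16424 in RNA-seq and 9457 in footprints. The 4 markers of suprabasal cells summed to 118 and 120 RPKM in RNA-seq, mostly from Ivl (104 and 104 RPKM), which encodes the cornified envelope protein involucrin, and to 88.3 RPKM in footprints. Markers of other cell types were low. The 8 fibroblast markers summed to 10.3 and 16.0 RPKM in RNA-seq and 0.870 RPKM in footprints, with Col3a1 the most abundant at 3.89 and 5.49 RPKM, and 7 of the 8 had 0 footprints on the CDS. In RNA-seq replicates 1 and 2 and in footprints, the 5 melanocyte markers summed to 5.46, 5.52 and 0.30 RPKM, led by Pmel, and the 4 endothelial markers to 0.505, 0.652 and 0.908 RPKM, led by Kdr. The 5 immune markers summed to 37.9, 46.1 and 10.3 RPKM, of which the lysosomal gene Cd68, not limited to immune cells, held 35.1, 37.3 and 10.3 RPKM. The macrophage marker Lyz2 held most of the rest in RNA-seq, at 2.71 and 8.56 RPKM (30.7 and 127 counts), with 0 footprints on the CDS. Of the immune markers, Cd3e and Aif1 were at 0 in all 3 libraries. The cell type label therefore fitted the markers, and fibroblast transcripts and Lyz2 were present at a low level in RNA-seq. In such bulk libraries, fewer cells of a type and less RNA per cell cannot be told apart.

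The modified genes were measured in every library. Hras was at 48.5 and 50.9 RPKM in RNA-seq replicates 1 and 2, with 128 footprints counted on its coding sequence. Tgfbr2 was at 61.4 and 59.0 RPKM in RNA-seq, with 193 such footprints. Counts over a whole gene show neither a base change nor a deleted exon, so these values do not check either modification.

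All 10 chaperone genes were abundant as mRNA and as footprints. Their mean RNA-seq level ran from 108 RPKM in Hspa5 to 1457 RPKM in Hsp90ab1, beside a median of 15.3 RPKM over the genes that passed. Footprints ran from 326 RPKM in Hspa4 to 3865 RPKM in Hspb1, beside a median of 19.1 RPKM. The lowest RNA-seq level still lay at percentile 93.7 of the genes that passed, and the lowest footprint level at percentile 94.9. Together the 10 genes took up 1.49% of all CDS footprints (95% interval by Wilson's method, 1.48 to 1.51%) and 0.788 and 0.740% of the exon counts in RNA-seq replicates 1 and 2. These shares count only the positions that entered the counting, which matters for 3 of the genes described below.

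**Figure D1:**
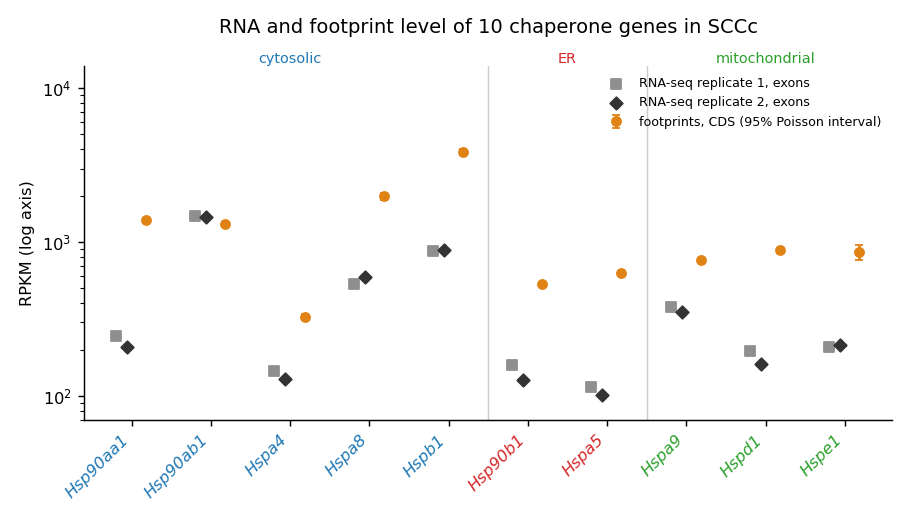
RPKM (log axis) of the 10 chaperone genes in RNA-seq replicates 1 and 2 (exons) and in the ribosome profiling library (CDS, with the 95% Poisson interval of the count), grouped by compartment. Footprints stand above RNA-seq in 9 genes, and Hsp90ab1 is the gene in which they do not. The medians over all genes that passed were 15.3 RPKM in RNA-seq and 19.1 RPKM in footprints. Footprints are thus the higher at these medians too, and the share of all genes with this order is not given here.

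Of the 10 genes, 7 had a log2 TE above 1, a level reached by 20.8% of all genes that passed (2047 of 9863). No member was below -1, where 21.1% of all genes lay (2077 of 9863). The median of the 10 was 1.62 ± 0.03 (SD over the RNA-seq replicates, n = 2), and the middle 50% of all genes ran from -0.82 to 0.82. Abundant genes as a whole had a higher TE. Among the 654 genes above 100 RPKM in both RNA-seq libraries, a threshold chosen after seeing the data, the median log2 TE was 0.52 and 32.9% were above 1. All 10 chaperone genes are among these 654. With the median of these abundant genes in place of the median of all genes, the chaperone median was 1.09, 6 members were above 1, and Hsp90ab1 was at -1.02. The share of 32.9% is relative to the median of all genes, so the count of 6 has no matching share here. The members were not drawn at random and genes are not replicates, so these shares describe the libraries and carry no p-value.

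**Figure D2:**
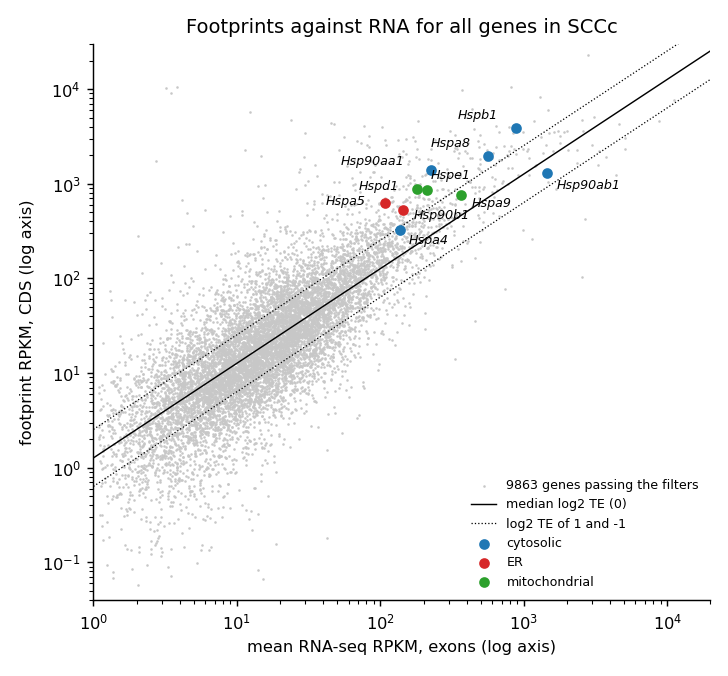
Footprint RPKM on the CDS against mean RNA-seq RPKM on exons (log axes) for the 9863 genes that passed the filters, with the chaperone genes coloured by compartment. The solid line marks the median TE and the dotted lines a log2 TE of 1 and -1; 7 chaperone genes lie above the upper dotted line, and Hsp90ab1 lies below the solid line.

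In order of log2 TE, the genes were Hsp90aa1 (2.29), Hspa5 (2.21), Hspd1 (1.97), Hspb1 (1.80), Hspe1 (1.68), Hsp90b1 (1.55), Hspa8 (1.47), Hspa4 (0.91), Hspa9 (0.74) and Hsp90ab1 (-0.50). Neighbours from Hsp90aa1 down to Hspa8 overlapped within 1 SD and counting error, as did Hspa4 and Hspa9. This measure takes the SD of each gene by itself, although all genes share the same libraries. Against each RNA-seq replicate alone, Hsp90aa1, Hspa5, Hspd1, Hspb1 and Hspe1 kept this order among themselves. Hspe1, Hsp90b1 and Hspa8 changed order between the replicates. The steps from Hspa8 to Hspa4 and from Hspa9 to Hsp90ab1 did not overlap. With these values the members fell into 7 genes of high TE whose neighbours overlapped, a pair of genes between 0 and 1, and Hsp90ab1 below the median of all genes. The grouping depended on division by length. With counts not divided by length, 8 members were above 1, Hspa4 (1.05) and Hspa9 (1.17) among them. Hspe1 then fell to 0.83 and Hsp90ab1 was at 0.31. The share of 20.8% over all genes was taken with division by length, so the count of 8 has no matching share here.

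The cytosolic Hsp90 genes showed the widest contrast. Hsp90aa1 encodes the stress-inducible cytosolic Hsp90 and Hsp90ab1 the constitutive one, and both fold kinases, steroid receptors and other client proteins. Hsp90aa1 was at 244 and 208 RPKM in RNA-seq replicates 1 and 2 and at 1397 RPKM in footprints (95% Poisson interval from 1371 to 1424). Hsp90ab1 was at 1466 and 1449 RPKM in RNA-seq and at 1309 RPKM in footprints (1284 to 1335). In RNA-seq, Hsp90ab1 was therefore 6.02 and 6.96 times as high as Hsp90aa1, whereas its footprint level was slightly the lower of the pair, with a ratio of Hsp90aa1 to Hsp90ab1 of 1.07 (1.04 to 1.10). The log2 TE was 2.29 ± 0.15 in Hsp90aa1 (SD, n = 2) and -0.50 ± 0.00075 in Hsp90ab1, a difference of 2.78 ± 0.15. The small SD of Hsp90ab1 shows only that its 2 RNA-seq values were close, and its counting error was larger, at 0.015. Against RNA-seq on the CDS in place of exons, the difference was 2.80.

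Sequence sharing bears on both genes. The Hsp90aa1 gene lies on the minus strand of chromosome 12 from 110690605 to 110702728 and Hsp90ab1 on the minus strand of chromosome 17 from 45567775 to 45573271 (GENCODE M21, GRCm38), and more than 99% of each annotated CDS was counted. Their coding sequences were 76.6% identical over 2174 aligned positions and shared 4 stretches of 30 nt. In Hsp90aa1, however, 1998 of the 2173 stretches of 30 nt in the CDS (91.9%) also occurred in annotated transcripts of other genes, most often the pseudogene Gm12346, against 450 of 2146 in Hsp90ab1. A footprint is about as short as such a stretch, and how reads with several matches were assigned is not given in the sources used here. The Hsp90aa1 level is for this reason uncertain, and the part of shared sequence in the contrast was not tested.

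The other cytosolic members are Hspa8, Hspa4 and Hspb1. Hspa8 encodes Hsc70, the constitutive cytosolic Hsp70, and was at 537 and 591 RPKM in RNA-seq and 1978 RPKM in footprints (1885 to 2074). Hspa4, an Hsp110-type nucleotide exchange factor of Hsp70, was at 146 and 128 RPKM in RNA-seq and 326 RPKM in footprints (314 to 338). Hspb1 encodes the small heat shock protein Hsp25, abundant in keratinocytes, and was at 869 and 888 RPKM in RNA-seq and 3865 RPKM in footprints (3690 to 4045). Hspb1 thus had the highest footprint level of the 10 genes and Hspa4 the lowest. The log2 TE was 1.47 ± 0.11 in Hspa8, 0.91 ± 0.12 in Hspa4 and 1.80 ± 0.03 in Hspb1 (SD, n = 2). Against RNA-seq on the CDS it was 2.03 in Hspa8, 0.48 in Hspa4 and 1.32 in Hspb1, so the order of Hspa8 and Hspb1 turned with the region used for RNA.

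Only part of the CDS was counted in Hspa8 and Hspb1. The counted length was 242 nt of the 1941 nt annotated in Hspa8 (12.5%) and 134 of 630 nt in Hspb1 (21.3%). The counted footprints were 1699 in Hspa8 and 1838 in Hspb1, so depth was not the limit, but the values stand for a short stretch of each gene. Of the 30-nt stretches of the annotated CDS, 1817 of 1912 in Hspa8 and 541 of 601 in Hspb1 occurred in other annotated genes, most often the pseudogenes Gm15459 and Hsp25-ps1. In Hspa4, on the minus strand of chromosome 11 from 53259814 to 53300457, nearly the whole CDS was counted (2526 nt) and 0 stretches were shared.

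Both ER members had a high TE. Hspa5 encodes BiP, the Hsp70 of the ER and a sensor of its unfolded proteins, and was at 114 and 101 RPKM in RNA-seq and 630 RPKM in footprints (612 to 649). Hsp90b1 encodes Grp94, the Hsp90 of the ER, and was at 159 and 127 RPKM in RNA-seq and 533 RPKM in footprints (518 to 549). Hspa5 was lower than Hsp90b1 in both RNA-seq replicates and higher in footprints. The log2 TE was 2.21 ± 0.11 in Hspa5 and 1.55 ± 0.22 in Hsp90b1 (SD, n = 2), a difference of 0.65 ± 0.11. As a pair, these genes took up 0.28% of all CDS footprints (95% Wilson interval, 0.274 to 0.286%) and 0.0738 and 0.0617% of the RNA-seq counts. The log2 ratio of these shares was 2.05, against 0.68 for the cytosolic and 1.14 for the mitochondrial genes. Hsp90ab1 alone held 39352 of the 58420 cytosolic RNA-seq counts in replicate 1 and 50855 of 73569 in replicate 2. The cytosolic value therefore depends largely on this gene. It also depends on the positions counted, since Hspa8 and Hspb1 entered with 348 and 258 nt of exon. They held 2002 and 2401 RNA-seq counts in replicate 1. Scaled by length, their mean RNA-seq levels were 564 and 878 RPKM, beside 1457 RPKM in Hsp90ab1. In the mitochondrial set, Hspe1 was likewise counted only in part.

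Nearly all of the CDS was counted in both ER genes. Hspa5 lies on the plus strand of chromosome 2 from 34771970 to 34777547 and shared 0 of its 30-nt stretches with other annotated genes. Hsp90b1 lies on the minus strand of chromosome 10 from 86690209 to 86705509, and 16.4% of its stretches were shared. Of the 3 genes that share them, the one with most is 1810014B01Rik, a pseudogene annotated on the opposite strand across part of Hsp90b1, which itself had 2.26 footprints and 5.64 and 6.21 RNA-seq counts.

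Genes induced by ER stress often carry the ER stress response element, and the promoters of both ER members hold it. The table of RefSeq promoters (GRCm38.p6, 300 nt around each annotated start) was searched on both strands for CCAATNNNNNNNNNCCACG, in which N is any base. It occurred in 39 of 32851 promoters (0.119%). Hspa5 had 1 match, at chr2:34772021-34772047 on the plus strand and 47 nt before the RefSeq start, a stretch that GENCODE M21 places in the 5′UTR of a Hspa5 transcript that starts further upstream. Hsp90b1 had 2 matches on its minus strand, at chr10:86705634-86705660, which is 194 nt before its start, and at chr10:86705529-86705555, which is 89 nt before it and holds the motif in reverse. The sequences are shown because both ER genes carry a motif that few promoters hold, with the fixed letters of the motif in capitals. A match describes these letters only.
Hspa5: ttcaCCAATcggaggcctCCACGacgg
Hsp90b1 far: aagcCCAATcgcaaggagCCACGcttc
Hsp90b1 near: agtgCGTGGtgaggcacgATTGGtgag
Of the other genes with this element, 8 passed the filters (Alg12, Calr, Canx, Creld2, Dnajc3, Pan2, Pdia6 and Syvn1). Their median log2 TE was 1.45, and 5 of the 8 were above 1, beside 20.8% of all genes. Calr, Canx, Creld2, Dnajc3 and Pdia6 are also among the ER partner genes described below, and Dnajc3 was at 1.38, but at 0.98 against RNA-seq on the CDS.

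The mitochondrial members include the chaperonin pair. Hspd1 encodes Hsp60, the barrel of the folding chamber, and Hspe1 encodes Hsp10, its lid. Hspd1 was at 196 and 161 RPKM in RNA-seq replicates 1 and 2 and at 890 RPKM in footprints (867 to 914). Hspe1 was at 207 and 215 RPKM in RNA-seq and at 856 RPKM in footprints (765 to 954). The genes of the barrel and the lid were thus close in footprints, while their RNA-seq levels on exons did not overlap between the replicates. Their footprint ratio was 1.04 (0.930 to 1.16), an interval that includes 1, and the RNA-seq ratio of Hspd1 to Hspe1 was 0.949 and 0.751 in replicates 1 and 2. The log2 TE was 1.97 ± 0.19 in Hspd1 and 1.68 ± 0.05 in Hspe1 (SD, n = 2), a difference of 0.29 ± 0.24. On the CDS, RNA-seq was at 215 and 173 RPKM in Hspd1 and at 381 and 399 RPKM in Hspe1, and against it the TE was 2.15 and 1.09. The Hspe1 value rests on 325 footprints over 107 of 309 annotated nt of CDS (34.6%), and 238 of its 280 stretches of 30 nt and 1352 of the 1693 in Hspd1 occurred in other annotated genes, mostly pseudogenes.

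Hspd1 and Hspe1 lie head to head on chromosome 1, Hspd1 on the minus strand from 55077835 to 55088243 and Hspe1 on the plus strand from 55088132 to 55091307. RefSeq starts of the pair lie 216 nt apart, at 55087932 and 55088148. Between them lies 1 window with the heat shock element GAANNTTCNNGAA, the motif bound by HSF1, which was searched on both strands and occurred in 198 of 32851 promoters (0.603%). The window, chr1:55088055-55088080, holds 2 matches that overlap each other, 1 on each strand, and it belongs to the promoters of both genes. It is 127 nt before the Hspd1 start and 72 nt before the Hspe1 start, and GENCODE M21 places it in the 5′UTR of a longer-reaching Hspd1 transcript. RefSeq gives Hspd1 2 promoters, of which 1 holds the window. The window is shown on the strand of each gene because the pair shares it, with the fixed letters of the matches in capitals.
Hspd1: ggccTTCcgGAAggTTCtaGAAcgga
Hspe1: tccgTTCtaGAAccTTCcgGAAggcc
Of the 40 other genes with this element that passed the filters, 20 were above the median TE of all genes and 11 were above 1, beside 20.8% of all genes, with a median log2 TE of 0.02. The promoters of Hspb1 and Hspa4 held neither motif, and Hsp90aa1, Hsp90ab1, Hspa8 and Hspa9 were not matched in the promoter table.

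Hspa9 encodes mortalin, the mitochondrial Hsp70 that pulls imported proteins into the matrix. Of the 30-nt stretches of its CDS, 445 of 2011 (22.1%) also occurred in the pseudogene Hspa9-ps1. The gene was at 379 and 350 RPKM in RNA-seq and at 770 RPKM in footprints (749 to 790). Its RNA-seq level was the highest of the mitochondrial genes, while its footprint level was below that of Hspd1 and overlapped that of Hspe1 within counting error. The log2 TE was 0.74 ± 0.07 (SD, n = 2), or 0.69 against RNA-seq on the CDS. The cytosolic Hsp70 gene Hspa8 had 2.57 times its footprint level (2.43 to 2.71) and, on exons, 1.42 and 1.69 times its RNA-seq level in replicates 1 and 2. On the CDS, of which 12.5% was counted in Hspa8, RNA-seq was at 461 and 478 RPKM in Hspa8 and at 478 and 442 RPKM in Hspa9, so the order of their RNA-seq levels turned between the replicates.

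By compartment, the median log2 TE was 1.47 ± 0.11 over the 5 cytosolic genes, 1.88 ± 0.16 over the 2 ER genes and 1.68 ± 0.05 over the 3 mitochondrial genes (SD over the RNA-seq replicates, n = 2). These medians lie within the range of the cytosolic genes alone, which ran from -0.50 to 2.29. The compartments thus overlapped, and no test between groups of 5, 2 and 3 genes was made. With genes of under 80% counted CDS left out, the cytosolic median fell to 0.97 and the mitochondrial median to 1.41, as Hspa8, Hspb1 and Hspe1 dropped out, and the ER median was 1.94. The order of the cytosolic and mitochondrial medians turned with the processing. With RNA-seq on the CDS, the mitochondrial median was 1.09 and the cytosolic 1.32, and with counts not divided by length they were 1.17 and 1.86. The ER median was the highest in both cases, at 2.01 and 2.59.

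**Figure D3:**
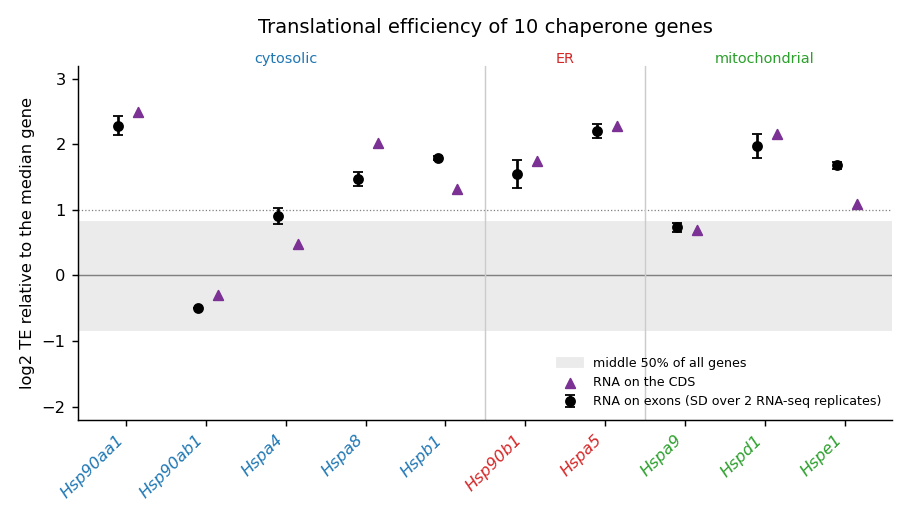
Log2 TE of the 10 chaperone genes relative to the median gene, with RNA-seq taken over exons (circles, with the SD over the 2 RNA-seq replicates) or over the CDS (triangles). The grey band is the middle 50% of all genes and the dotted line marks 1. The same 7 genes lie above 1 with either region. The share of all genes above 1, 20.8%, was taken with exons only.

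Footprints on the untranslated regions (UTRs) were compared with those on the CDS per counted nt. On the 5′UTR, the median ratio of the 10 members was 0.263, beside 0.335 over the 3784 genes whose counted 5′UTR was 60 nt or longer and whose CDS held 100 counts or more in each library. In none of the 10 did this ratio exceed 1, as it did in 10.5% of these genes (399 of 3784). With a minimum of 120 nt, the median of the members left was 0.115 and that of all genes 0.357. The highest ratios were those of Hspa8 (0.456, 95% Poisson interval from 0.40 to 0.518), Hspa5 (0.398, 0.346 to 0.457) and Hspa4 (0.362, 0.302 to 0.429). These 3 exceeded the median ratio given above. The lowest were those of Hspe1 (0.0944, 0.0742 to 0.120), Hsp90aa1 (0.102, 0.0801 to 0.129), Hspd1 (0.115, 0.0876 to 0.150) and Hspb1 (0.130, 0.112 to 0.150). Hsp90ab1 (0.258), Hsp90b1 (0.268) and Hspa9 (0.309) lay between them, with intervals that overlap one another. The highest ratio (Hspa8), the lowest (Hspe1) and that of Hspb1 are set against a CDS that was counted only in part.

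RNA-seq on the 5′UTR varied far more among the members than footprints did. Hsp90aa1 had 1.74 and 4.40 RNA-seq counts on 144 nt of 5′UTR in replicates 1 and 2, beside 72.7 footprints. The count of replicate 1 cannot be told from 0, and in replicate 2 the density was 0.00987 times that of its CDS. In 3 other genes this ratio was also under 0.1. Over the 3784 genes its lower quartile was 0.0806, so such a low ratio was common among all genes. Hspa4 had 19.8 and 30.7 RNA-seq counts on 313 nt, a ratio of 0.0244 and 0.0334, beside 131 footprints. Hspa9 had 8.97 and 39.4 RNA-seq counts on 101 nt, a ratio of 0.0173 and 0.0629, beside 85.2 footprints. Hspd1 had 16.8 and 31.6 RNA-seq counts on 156 nt, a ratio of 0.0467 and 0.0834, beside 56.9 footprints. In these 4 genes the counted 5′UTR thus had few RNA-seq reads and held footprints. The 10 members as a set were not low, with a median RNA-seq ratio of 0.284 beside 0.254 over all 3784 genes. Of the 10, 5 lay below the median of all genes. RNA-seq was dense on the 5′UTR in Hspa8, with a ratio of 2.08 and 2.43 on 74 nt, and in Hsp90ab1, with a ratio of 1.00 and 1.23 on 95 nt. The Hspa8 ratio is set against only 242 of the 1941 nt of its annotated CDS. Hsp90aa1 and Hsp90ab1 therefore also stood apart in this measure, at percentiles 6.55 and 96.1 of the 3784 genes, whose median RNA-seq ratio was 0.254. The 144 nt counted in Hsp90aa1 equal the 5′UTR length of 1 annotated transcript with the full CDS, while another has 138 nt. Counts per region do not tell which of the 5′ ends was read.

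On the 3′UTR, footprints were rare. In the 7 members with at least 60 counted nt, the density ratio to the CDS ran from 0.00610 in Hspa4 to 0.0564 in Hsp90ab1, with a median of 0.0149 beside 0.0172 over 4571 genes. The RNA-seq ratio on the same 3′UTRs had a median of 0.412, beside 0.55 over all those genes. Hsp90ab1 had 62.9 footprints on 240 nt of 3′UTR, and its interval (0.0434 to 0.0723) lay above that of Hsp90aa1 (0.0175 to 0.0298), which had 58.5 footprints on 507 nt. In RNA-seq the order was the reverse, at 0.259 and 0.271 in Hsp90ab1 and 0.999 and 0.952 in Hsp90aa1. Hspa8, Hspb1 and Hspe1 had 32, 18 and 36 counted nt of 3′UTR and were left out. The footprints of the members thus lay mainly on the CDS, and the 5′UTR held at most 17.8% of the exon footprints of a gene (Hspe1, 95% Wilson interval from 14.5 to 22.0%). The highest shares were those of Hspe1, Hspa8 (12.1%) and Hspb1 (9.33%), the 3 genes with a partly counted CDS, and among the other 7 genes the highest was 4.47% in Hspa5 (3.92 to 5.11%).

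**Figure D4:**
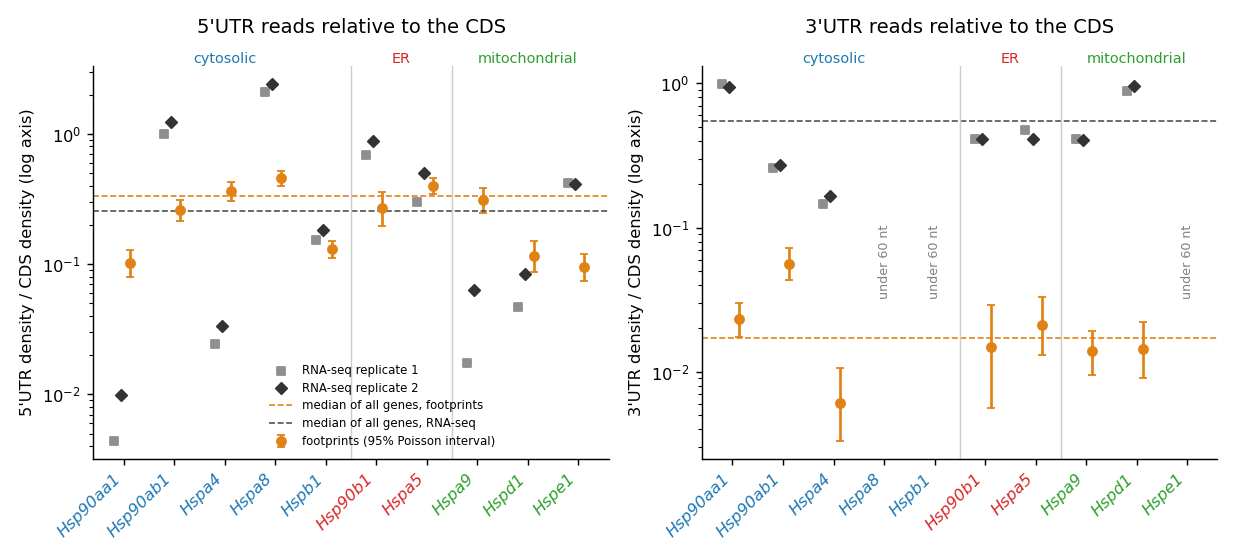
Density of reads per nt on the 5′UTR (left) and 3′UTR (right) divided by the density on the CDS (log axes), for footprints with their 95% Poisson interval and for RNA-seq replicates 1 and 2. Dashed lines are the medians over all genes. Footprint ratios stay within 0.0944 to 0.456 on the 5′UTR. RNA-seq ratios on it reach 2.43 in Hspa8 and are lowest in Hsp90aa1, where the replicate 1 point rests on 1.74 counts. The CDS of Hspa8, Hspb1 and Hspe1 was counted only in part.

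The partners of these chaperones were read from 9 lists with 95 genes, of which 94 were in the files and 86 passed the filters. Of the 86, 37 had a log2 TE above 1 and 7 were below -1, and their median was 0.85. Over all genes that passed, 20.8% were above 1 and 21.1% below -1, and of the genes above 100 RPKM 32.9% were above 1. With RNA-seq on the CDS, the median of the partners was 0.51 and 28 were above 1. The shares over all genes were taken with RNA-seq on exons, so counts above 1 with RNA-seq on the CDS have no matching share here. Highest and lowest genes are given below among those with 100 counts or more in each library, and the most abundant gene by mean RNA-seq. These ranks of TE use RNA-seq on exons, and some of them turned with RNA-seq on the CDS. Of 16 genes of the ER Hsp70 system and lectin chaperones, 10 were above 1 and 0 below -1, with a median of 1.32. With RNA-seq on the CDS, 7 were above 1 and the median was 0.83, below the 0.96 of the other cytosolic Hsp70 and Hsp110 genes. Its highest gene was Manf (3.50, but 2.09 against RNA-seq on the CDS, below Calr at 2.26), a secreted ER stress protein, its lowest Sil1 (-0.71), a nucleotide exchange factor of BiP, and its most abundant Canx (1.52), the lectin chaperone calnexin. Of 7 protein disulfide isomerases and related oxidases, 5 were above 1, with a median of 1.32 (1.31 with RNA-seq on the CDS). Among well-counted genes Pdia3 was highest (1.71), Ero1l lowest (-0.14) and P4hb most abundant (1.04). Against RNA-seq on the CDS, Pdia3 was at 1.31, below Pdia4 at 1.38 and Pdia6 at 1.34. Like Hspa5 and Hsp90b1, 14 of the 16 and 6 of the 7 genes lay above the median of all genes.

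The cytosolic lists cover the partners of Hsp70 and Hsp90. Of 12 Hsp90 co-chaperones, 5 were above 1 and 1 was below -1, with a median of 0.79, and with RNA-seq on the CDS 4 were above 1 and the median was 0.62. Stip1, which passes clients from Hsp70 to Hsp90, was the most abundant at 1.11, Unc45a, a myosin chaperone, the lowest at -1.06 (-0.84 against RNA-seq on the CDS) and Ptges3, the co-chaperone p23, the highest at 4.74, with 36.0% of its CDS counted and 8.10 against RNA-seq on the CDS. Of 12 cytosolic J-domain proteins, 4 were above 1 and 2 below -1, with a median of 0.39, and with RNA-seq on the CDS 2 were above 1 and the median was 0.29. The highest was Dnaja1 at 5.30, with 18.1% of its CDS counted and 3.26 against RNA-seq on the CDS, and the most abundant was Dnaja2 at 0.95, while the heat-inducible Dnajb1 was lowest among well-counted genes at 0.24, or -0.08 against RNA-seq on the CDS. The highest values of both lists thus rest on genes with a small counted part. Of 8 nucleotide exchange factors and co-chaperones of Hsp70, 2 were above 1 and 1 below -1, with a median of 0.06. Among well-counted genes Bag2 was highest (1.77) and Bag5 lowest (-0.32), and St13 was most abundant (0.31), while Bag1, with fewer counts, was the gene below -1 (-1.30). Of 7 other Hsp70 and Hsp110 genes that passed, 3 were above 1, with a median of 0.97, Hspa14 highest (1.97, but 0.51 against RNA-seq on the CDS) and Hspa4l both lowest (-0.66) and most abundant. Of the 8 other small heat shock protein genes only Cryab (2.70) and Hspb8 (0.44) passed, and the 8 summed to 29.6 and 29.8 RPKM in RNA-seq, far below Hspb1 alone.

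Of 16 mitochondrial co-chaperones and proteases, 5 were above 1 and 2 below -1, with a median of 0.48, and with RNA-seq on the CDS 3 were above 1 and the median was 0.20. Grpel1, the nucleotide exchange factor of Hspa9, was highest among well-counted genes at 2.80, and the protease subunit Spg7 lowest at -1.30. Against RNA-seq on the CDS, Grpel1 was at 1.24, below Grpel2 at 1.56. Hscb, a J-domain protein of iron-sulfur cluster assembly, was most abundant in RNA-seq at 56.6 RPKM but at -2.24 with 37.9 footprints, and Pam16, with 93.4 footprints, was at 2.94. Of 6 regulators of the heat shock and unfolded protein responses, 2 were above 1 and 1 below -1, with a median of 0.63, and with RNA-seq on the CDS 1 was above 1 and the median was 0.31. Hsbp1, which binds HSF1, was highest and most abundant (1.47, but 0.24 against RNA-seq on the CDS), and Xbp1, a transcription factor of the unfolded protein response, was lowest among well-counted genes (0.36, but 0.39 against RNA-seq on the CDS, above Hsbp1). The gene below -1 was Hsf1 itself (-1.40), named here after its value was seen. Of the 6 regulators, 4 lay above the median of all genes.

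**Figure D5:**
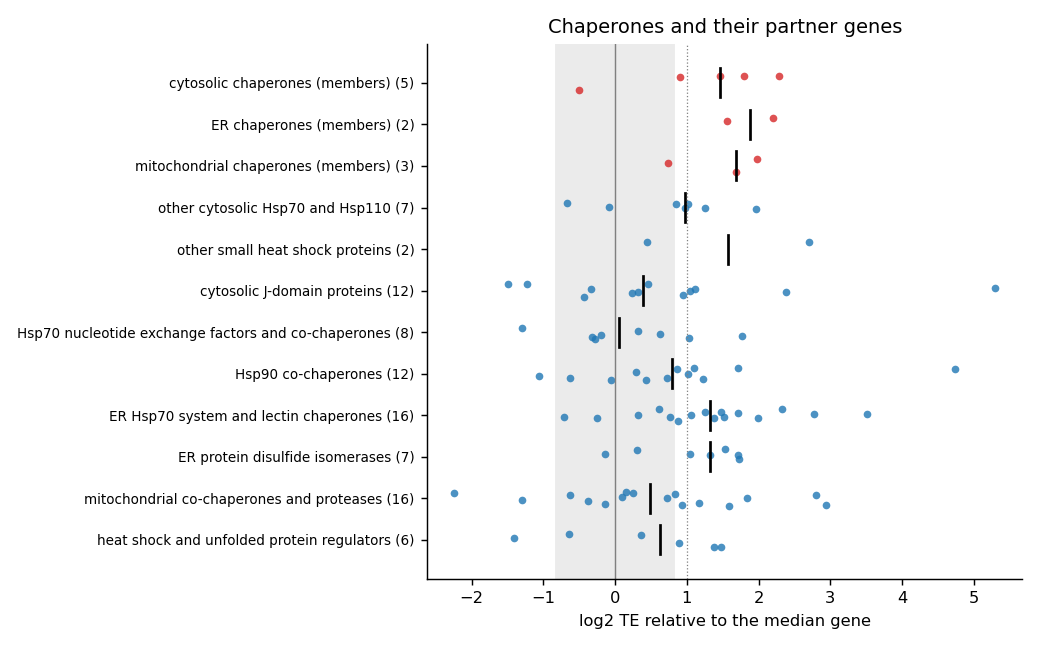
Log2 TE of the chaperone genes (red) and of the partner genes that passed the filters (blue), each point 1 gene, with the number of genes per list in brackets and the list median as a black bar. The grey band is the middle 50% of all genes. The medians of both ER partner lists are at 1.32, and the cytosolic and mitochondrial partner lists with more than 2 genes have medians from 0.06 to 0.97. The list of other small heat shock proteins, with 2 genes, is at 1.57. All values use RNA-seq on exons, and with RNA-seq on the CDS the ER Hsp70 list was at 0.83.

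Genes closest in level to the member with the highest mean RNA-seq RPKM of each compartment were sought among the 4829 genes that had 100 counts or more in each library, by the distance of log2 RPKM over the 3 libraries. Closest to Hsp90b1 were Canx (distance 0.12) and Hnrnpu (0.19), at 530 and 571 RPKM in footprints. Closest to Hspa9 were Cox6c (0.27) and Ly6d (0.28), and closest to Hsp90ab1 were the keratin gene Krt17 (0.40) and the elongation factor gene Eef1b2 (0.48). The nearest genes thus lay further from Hsp90ab1 than from Hsp90b1.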

How the data were processed

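The authors aligned reads to GRCm38 with STAR 2.6.1, removed ribosomal, mitochondrial and tRNA reads from ribosome profiling with Bowtie2 2.4.1, and counted regions with Plastid. The values deposited by the authors are estimated counts that need not be whole, and RPKM values that use library totals above the sum of the gene counts. New RPKM values were computed with the sum of each library's exon counts as its total (Python 3.11.15, pandas 2.3.3). Genes passed with footprints on the CDS, a base mean above 25 (DESeq2 1.42.0 size factors on rounded counts) and an RPKM above 1 in each RNA-seq library. No model of an interaction was fitted, since 1 condition was used here, and no p-value was computed for genes. Intervals are Poisson or Wilson (scipy 1.17.1). The calculation was tested on simulated counts with known changes. That test covers the arithmetic only, and not the effect of a partly counted CDS or of shared sequence.

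Members and lists were chosen with earlier results of these data known. From each list, the genes with the highest and lowest TE among those that had 100 counts or more in each library and the most abundant gene were named, with all members, Hras, Tgfbr2, for the marker lists the most abundant gene and those at 0, and the 2 genes nearest in level to 1 member per compartment. Genes named outside this rule, after their values were seen, are those with a motif and the pseudogenes that share sequence. Lyz2, Hspb8, Bag1, Grpel2, Pam16, Pdia4 and Hsf1 were also named in this way. Whether the RNA-seq replicates came from separate cultures is not given in the sources used here. Long-read libraries were not analysed here, nor were those the study took from another series.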

Additional observations from a re-analysis of the deposited data

How the results depend on the processing

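Over 107 single-gene values under the alternatives, 106 kept their sign; Hsp90ab1 turned to 0.31 when counts were not divided by length, and Hspe1 then fell to 0.83, with 8 members above 1. Without one RNA-seq replicate, the median of the 10 genes was 1.63 to 1.68. In the order all 10, cytosolic, ER and mitochondrial genes, the medians were 1.22, 1.07, 1.49 and 1.29 with at least 100 counts in every library, 1.91, 1.86, 2.59 and 1.17 with counts not divided by length, and 1.09, 0.94, 1.36 and 1.16 against the genes above 100 RPKM, an alternative chosen after seeing the data. The filter and this last setting only move the median of all genes. With RNA-seq on the CDS, they were 1.54 for all 10, 1.32 for the cytosolic and 1.09 for the mitochondrial genes. Without a filter, the median of the 10 was 1.57. With at least 80% of the CDS counted, 7 members were left, 4 of them above 1, and the medians were 0.97 (cytosolic) and 1.41 (mitochondrial). Counts of members above 1 under these alternatives have no matching share over all genes here. The difference between Hsp90aa1 and Hsp90ab1 was 2.62 without division by length, and within 1 SD of 2.78 under the other alternatives. The median 5′UTR ratio of footprints fell to 0.115 with a minimum of 120 nt, which keeps fewer genes, and that of all genes was 0.357. Apart from such changes by construction, the cause was not tested. No paired analysis was made, since 1 condition and 1 footprint library were used here. The use of a single footprint library limits every value, and fewer than 3 counts cannot be told from 0.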
